A study of Mus musculus with 16 samples.

Results

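The 10 genes of mouse skin described here are Ago2, Zbed6, Tiparp, Lnpep, Nav3, Prrg4, Uba6, Mib1, Ctsz and H2-M2. Their difference between ultraviolet B (UVB) exposed and unexposed epidermis was not the same after 2 weeks as after 25 weeks. They are 10 of the 24421 genes counted, and all 10 passed the filter on low counts, which left 13478 genes in epidermis and 14661 in tumor and whole skin. The genes were chosen by that difference itself: they rank at places 1, 2, 5 to 11 and 14 by p-value among the 13478 genes for the UVB effect at week 25 minus the UVB effect at week 2. The genes between and just past them were Dhrs9 at place 3, Eda2r at place 4, Cep350 at place 12, Trabd2b at place 13 and Usp34 at place 15, with log2 differences of -2.49, -4.50, -1.81, 3.60 and -2.09. The last gene inside, Mib1, had -2.76. Every value of the 10 genes that uses the week 2 or week 25 epidermis is therefore a description and is given without a test. The comparisons that the choice did not use are UVB against control at week 15, and tumor against whole skin. The week 15 test shares its fit, and so its estimate of spread, with weeks 2 and 25.

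Female mice of the hairless strain SKH-1, which is used in work on skin carcinogenesis by light, were the source of the skin RNA. Epidermis came from mice given 60 mJ/cm2 of UVB in 2 sessions each week and from mice with no agent, at weeks 2, 15 and 25. At week 25 the study also took tumors from UVB mice and, from mice with no agent, whole skin. Each of these 8 groups holds 2 libraries, called 0 and 1 by their titles. The ages of the animals are not given, and nothing says that a pair of libraries came from separate mice, so a p-value reflects the spread between libraries that may be only technical replicates. Bulk RNA also cannot tell fewer cells of a type from less RNA per cell.

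Libraries held 2905165 to 7959503 counts. Pairs of one group differed by more than counting noise, with a chi-square per degree of freedom of 4.82 to 48.9. The 11 keratinocyte markers found in the table summed to 5796 to 7336 CPM (counts scaled to a common library total after TMM normalisation) in the 12 epidermis libraries and none was at 0, and to 3611 to 4305 CPM in whole skin and tumor. This sum does not measure keratinocyte content closely, since the differentiation keratin Krt10 held 3044 to 4023 counts in every epidermis library, hardly running with depth in counts from which duplicates had been removed. Of these 11, 3 rose with UVB at week 2, 0 did so without week 2 control 1, and none passed at weeks 15 and 25. Week 2 control 1 was the shallowest library, at 2905165 counts against 5696910 in week 2 control 0. The 6 RNAs listed for RNA quality that are in the table summed to 5719 CPM there against 2936 in control 0. Among them the nuclear RNAs Malat1 and Neat1, looked at after the values were seen, held nearly the same counts in both libraries (4118 and 5045 against 4428 and 5475). Their CPM was thus higher in the shallower library. Over all 16 libraries Neat1 held 4311 to 5976 counts and Malat1 2732 to 6662. Whether the higher CPM reflects RNA quality or the removal of duplicates was not tested. Without week 2 control 1 the genes called at week 2 were 7.97% of those tested in place of 17.8%, and for the difference between weeks 4.63% in place of 7.92%. For week 2 and for the difference between weeks, counts of calls in the gene groups below are given without it where they change. Those of weeks 15 and 25 were not recounted without it, though they come from the same fit and can depend on it. Whole skin controls 0 and 1 also stood apart from each other, and tumor values are given without each.

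The 10 genes act in separate processes. Ago2 is the Argonaute protein that holds small RNAs and cuts their target transcripts. Zbed6 is a transcription factor derived from a DNA transposon and a repressor of Igf2, and its gene lies inside an intron of Zc3h11a. Tiparp is an ADP-ribosyltransferase that the aryl hydrocarbon receptor (AHR) induces and that represses this receptor in turn, and AHR is known to respond to tryptophan products made by UVB in skin. Uba6 activates ubiquitin and the ubiquitin-like protein Ubd, and Mib1 is the ubiquitin ligase that drives endocytosis of NOTCH ligands. Lnpep is the insulin-regulated membrane aminopeptidase, Nav3 a neuron navigator protein that binds microtubule ends, and Prrg4 a membrane protein with a vitamin K dependent Gla domain. Ctsz is cathepsin Z, a lysosomal carboxypeptidase, and H2-M2 is a nonclassical MHC class I gene.

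Promoters were at hand in the RefSeq table of GRCm38.p6, the same assembly as the mm10 of the counts, for 6 of the 10 genes: Ctsz, H2-M2, Lnpep, Prrg4, Tiparp and Zbed6. Each runs from 250 bases before the start to 50 after. Those of Tiparp and Lnpep are shown because they hold the AHR core motif, and those of Ctsz and H2-M2 because these are the 2 genes whose pattern ran opposite to that of the other 8. Capitals mark the AHR core, written GCGTG and searched on both strands, which reads CACGC where it lies on the opposite strand.
Tiparp, chr3:65528197-65528496, plus strand: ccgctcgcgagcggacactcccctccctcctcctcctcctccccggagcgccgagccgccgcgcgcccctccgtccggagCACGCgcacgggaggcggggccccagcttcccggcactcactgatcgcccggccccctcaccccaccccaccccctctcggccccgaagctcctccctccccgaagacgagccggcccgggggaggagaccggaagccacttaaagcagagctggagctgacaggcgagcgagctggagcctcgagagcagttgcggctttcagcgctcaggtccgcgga
Lnpep, chr17:17624440-17624739, minus strand: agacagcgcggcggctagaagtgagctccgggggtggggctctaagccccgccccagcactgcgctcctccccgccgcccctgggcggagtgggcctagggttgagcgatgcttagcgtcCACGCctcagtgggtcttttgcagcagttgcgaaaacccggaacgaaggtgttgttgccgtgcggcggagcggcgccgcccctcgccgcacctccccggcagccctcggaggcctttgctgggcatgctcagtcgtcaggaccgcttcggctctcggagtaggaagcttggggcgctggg
Ctsz, chr2:174438990-174439289, minus strand: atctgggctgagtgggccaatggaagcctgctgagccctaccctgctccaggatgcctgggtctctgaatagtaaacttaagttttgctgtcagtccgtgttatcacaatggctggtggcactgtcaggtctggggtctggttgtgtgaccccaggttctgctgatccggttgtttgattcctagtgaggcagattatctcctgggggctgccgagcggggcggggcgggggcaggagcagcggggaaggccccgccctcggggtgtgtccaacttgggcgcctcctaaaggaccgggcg
H2-M2, chr17:37483505-37483804, minus strand: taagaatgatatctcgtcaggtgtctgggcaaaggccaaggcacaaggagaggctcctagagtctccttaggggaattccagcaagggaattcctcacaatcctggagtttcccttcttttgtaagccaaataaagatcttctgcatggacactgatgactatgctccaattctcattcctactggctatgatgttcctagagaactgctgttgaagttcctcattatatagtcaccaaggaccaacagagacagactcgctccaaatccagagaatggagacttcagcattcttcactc
The AHR core occurred 1 time in Tiparp and 1 time in Lnpep, both upstream of the start, and in none of the other 4 windows. It occurs in 32.39% of the 32851 promoters of this length in the table, so its presence in 2 of 6 is close to the share of all promoters. The CCAAT box (CCAAT, in 37.41% of all) was in Ctsz and H2-M2. The GC box (GGGCGG, in 35.66% of all) occurred 3 times in Ctsz, 4 times in Lnpep and 1 time in Zbed6, and 2 of those in Ctsz share 1 base. The core of the cyclic AMP element (TGACG, in 20.81% of all) was in H2-M2 and Lnpep. Neither the AP-1 motif (TGANTCA, in 7.81% of all) nor the TATA box (TATAAA, in 13.62% of all) was in any of the 6. Tiparp held 34 CpG dinucleotides, Lnpep 30, Zbed6 21, Prrg4 13, Ctsz 12 and H2-M2 2, against a median of 7.

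The 10 genes made 2 patterns. Ago2, Zbed6, Tiparp, Lnpep, Nav3, Prrg4, Uba6 and Mib1 were higher in UVB than in control epidermis at week 2 and lower at week 25. Ctsz and H2-M2 were lower in UVB at week 2 and higher at week 25. The smallest of these log2 effects was 0.42 (standard error of the fit 0.21), for Lnpep at week 2. It ran from 0.11 to 0.54 over the alternative settings. Next came Tiparp at week 25 with -0.48 (standard error 0.16) and Ctsz at week 25 with 0.90 (standard error 0.31). In all 10 the UVB and control libraries did not overlap at either week, which the choice of genes fixes, where 60.0% of all tested genes did not overlap at week 2 and 70.8% at week 25. The control arm moved further than the UVB arm between weeks 2 and 25 in 10 of 10 genes, and it held 50.5% (H2-M2) to 79.5% (Uba6) of the difference, with a median of 73.3%. Without week 2 control 1 the control arms were 2.48 for Ago2, 2.42 for Zbed6, 1.36 for Tiparp, 2.05 for Lnpep, 2.43 for Nav3, 1.91 for Prrg4, 1.62 for Uba6, 1.93 for Mib1, -2.26 for Ctsz and -1.25 for H2-M2, each in its direction in the full set. For H2-M2 the arms were nearly equal with all libraries, and its UVB arm was the larger one in 6 of the 20 alternative settings tried.

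**Figure D1:**
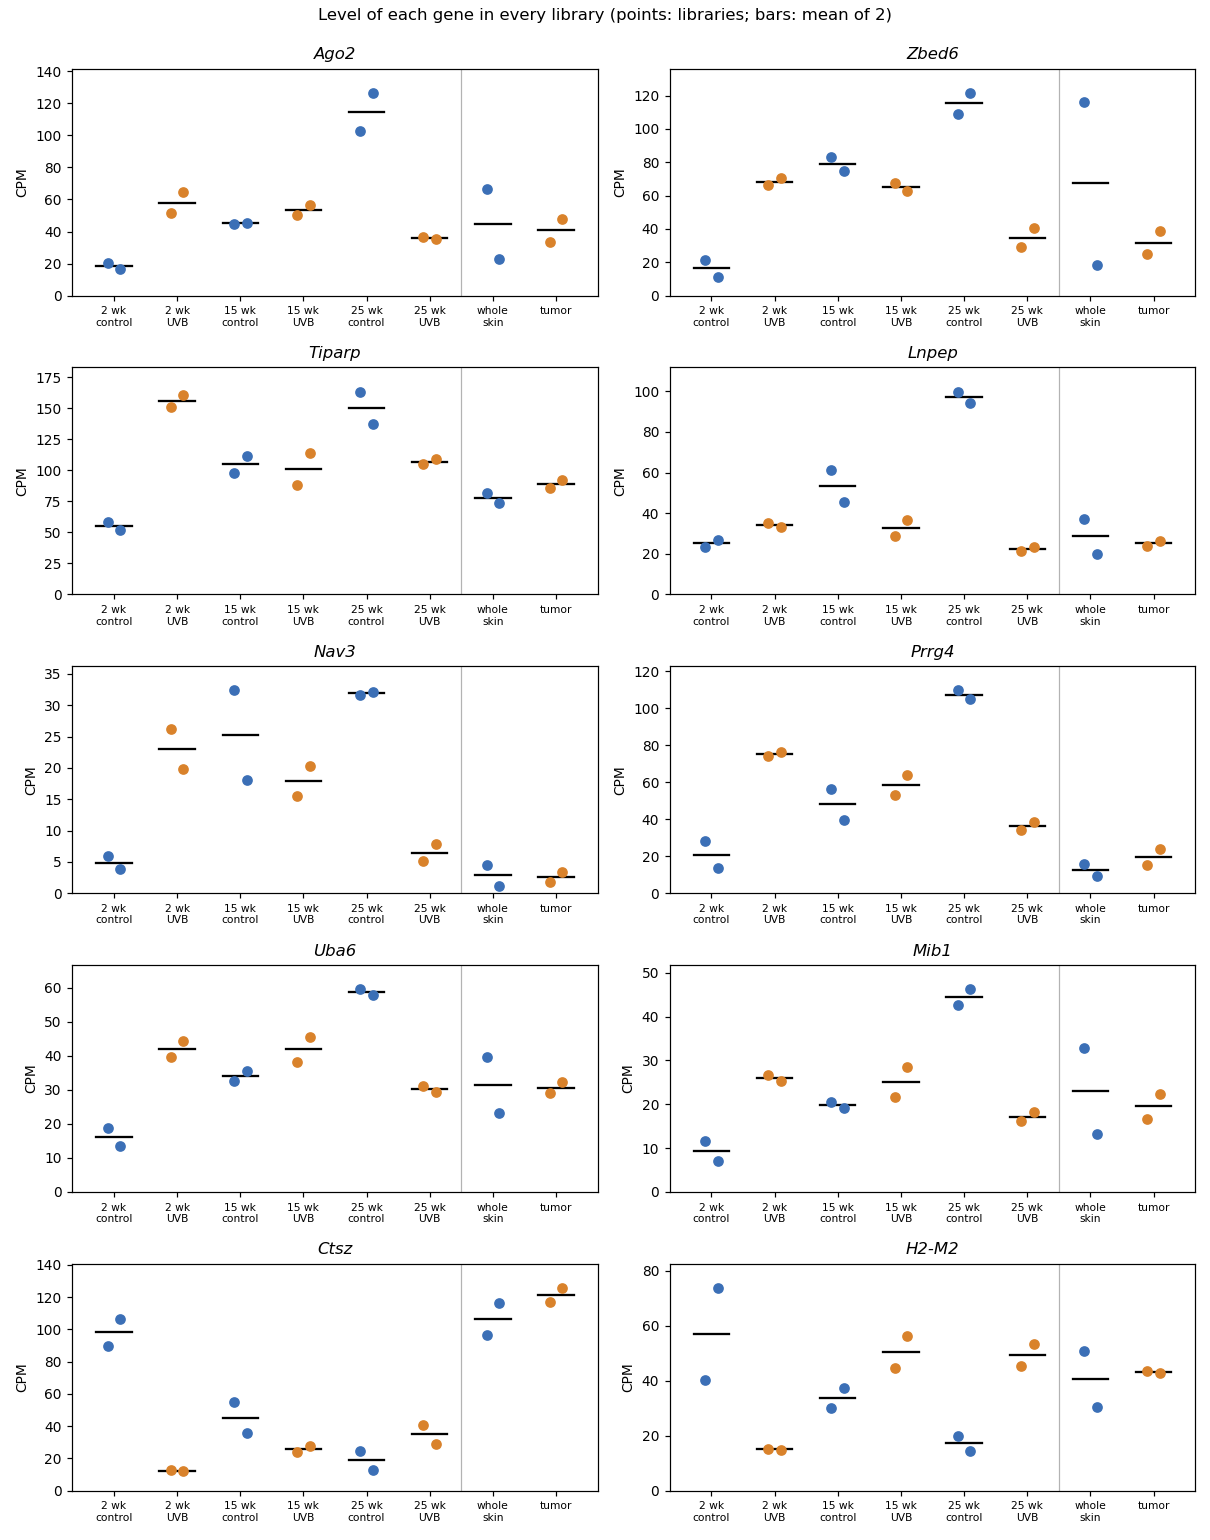
CPM (y axis, from 0) of each gene in the 16 libraries by group (x axis): points are libraries, black bars the mean of 2, blue unexposed and orange UVB. Control epidermis of week 25 holds the highest epidermal values of Ago2, Zbed6, Lnpep, Prrg4, Uba6 and Mib1, while Ctsz stands highest among epidermis groups in week 2 control.

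**Figure D2:**
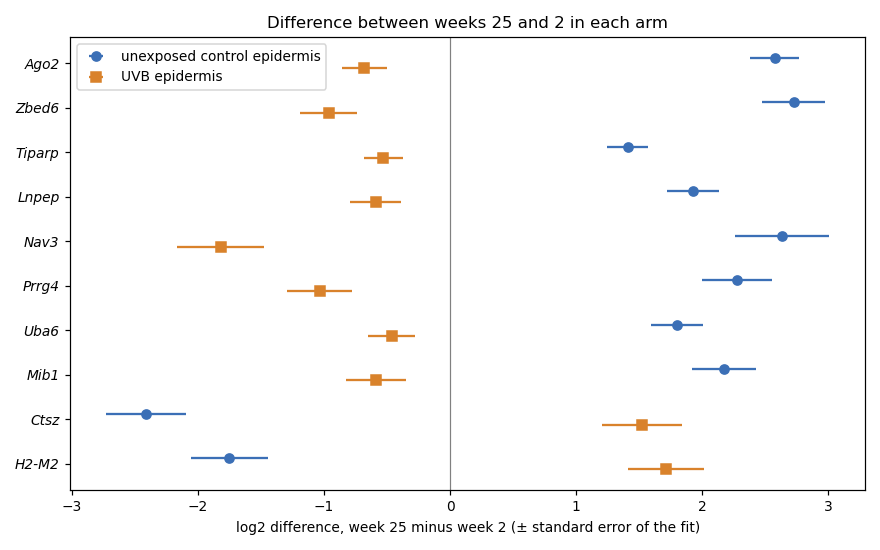
Log2 difference, week 25 minus week 2, in control epidermis (blue circles) and in UVB epidermis (orange squares) for each gene, with bars for the standard error of the fit. The arms lie on opposite sides of 0 in all 10 genes, with the control arm further from 0.

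Ago2, the slicing Argonaute, had the smallest p of all genes for the difference between weeks. Control epidermis held 20.3 and 16.8 CPM of Ago2 at week 2, 45.0 and 45.4 at week 15, and 102 and 126 at week 25. UVB epidermis held 51.4 and 64.4 CPM at week 2, 50.1 and 56.2 at week 15, and 36.6 and 35.3 at week 25. Control libraries were higher at each later week without overlap, while UVB libraries of weeks 2 and 15 overlapped and those of week 25 lay below both. The log2 difference between weeks 25 and 2 was 2.58 ± 0.19 (SE of the fit) in controls and -0.68 ± 0.18 in UVB, so the UVB effect differed by -3.26 ± 0.26. Among the 13 other genes of small RNA silencing, 1 rose and 3 fell with UVB at week 2, 2 fell at week 15 and 6 fell at week 25, with median log2 values of 0.06, -0.12 and -0.44 against -0.03, -0.01 and 0.01 over all tested genes. Calls over all tested genes, in both directions, made up 17.8% at week 2, 3.49% at week 15 and 21.5% at week 25. Of the 13478 tested genes, 1313, 221 and 1468 fell at these weeks. Argonaute Ago4 fell at weeks 2 and 15 (log2 -1.07 ± 0.18 and -0.90 ± 0.18), and Ago1 at weeks 15 and 25 (-0.78 ± 0.19 and -1.05 ± 0.19), by the quasi-likelihood test of edgeR with Benjamini-Hochberg adjusted p of 0.00603, 0.0275, 0.0478 and 0.00572. The export factor Xpo5 fell at week 25 (-1.10 ± 0.17, adjusted p = 0.00386). The difference between weeks 25 and 2 was called down in 4 of the 13 and up in none, where 7.92% of all tested genes were called, 618 down and 449 up. Xpo5 was among the 4, at -0.98 ± 0.25 (adjusted p = 0.0381). Over all tested genes calls down rose with length, from 0% under 1 kb to 26.2% over 10 kb. For falls at week 25 these shares were 2.37% and 48.0%. The part of length in the calls of the 13 was not tested. Without week 2 control 1, 0 rose and 1 fell at week 2, Ago4, and the difference was called in 2 of the 13, with Xpo5 no longer among them (-0.97, adjusted p = 0.0701).

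Zbed6 had 21.4 and 11.4 CPM in control epidermis at week 2, 82.9 and 74.5 at week 15, and 109 and 122 at week 25. In UVB epidermis Zbed6 stood at 66.4 and 70.3 CPM at week 2, 67.9 and 62.8 at week 15, and 29.1 and 40.6 at week 25. Most of the control difference was already there at week 15, and UVB libraries overlapped at weeks 2 and 15 and were lower at week 25. The control arm was 2.73 ± 0.25 on the log2 scale, the UVB arm -0.96 ± 0.23 and the difference between them -3.69 ± 0.34. Zbed6 is counted over 1 exon that lies wholly within an intron of Zc3h11a on the same strand, so reads of unspliced Zc3h11a and of Zbed6 cannot be told apart there.

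The host gene Zc3h11a, a zinc finger protein of RNA export, moved less than Zbed6. Per 100 Zc3h11a counts there were 9.01 and 5.81 Zbed6 counts in week 2 controls, 22.99 and 22.99 in week 15 controls, and 31.9 and 37.0 in week 25 controls. UVB libraries gave 28.4 and 27.5 at week 2, 22.3 and 23.3 at week 15, and 12.6 and 15.7 at week 25. The ratio thus ran upward with week in controls and downward in UVB. Zc3h11a itself fell with UVB at week 25 (log2 -0.45 ± 0.15, adjusted p = 0.0492) and did not pass at week 2 (0.14 ± 0.15, adjusted p = 0.528) or week 15 (-0.28 ± 0.14, adjusted p = 0.308). Of the 5 tested genes listed as its host, relatives or targets, 1 fell at week 2, 0 passed at week 15 and 1 fell at week 25. The growth factor receptor Igf1r fell at week 2 (-0.75 ± 0.22, adjusted p = 0.0404).

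**Figure D3:**
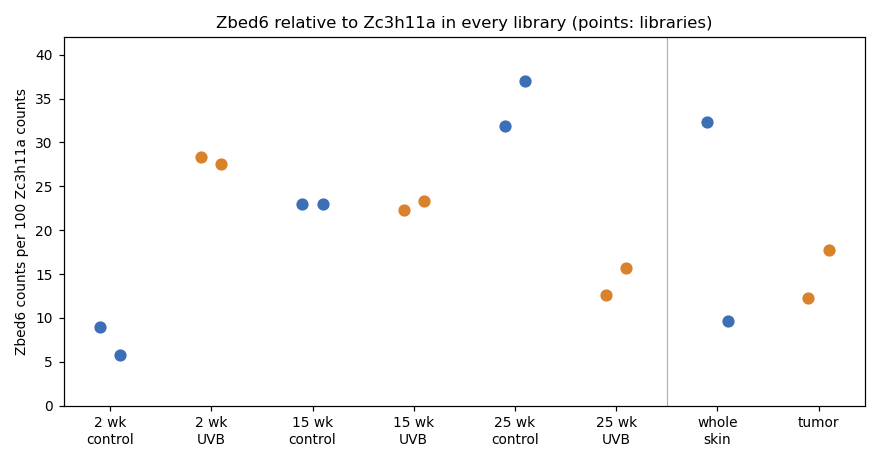
Zbed6 counts per 100 Zc3h11a counts (y axis, from 0) in each library (points) by group, blue unexposed and orange UVB. Control epidermis spans 5.81 at week 2 to 37.0 at week 25, and UVB epidermis 28.4 at week 2 to 12.6 at week 25.

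Tiparp, the AHR target, was at 58.0 and 52.2 CPM in control epidermis at week 2, 98.1 and 111 at week 15, and 163 and 137 at week 25. UVB epidermis had 150.5 and 160.3 CPM of Tiparp at week 2, 88.2 and 114 at week 15, and 105 and 109 at week 25. UVB libraries of week 2 and control libraries of week 25 were the 2 highest groups and overlapped each other, and both arms overlapped at week 15. Its control arm was 1.41 ± 0.16 and its UVB arm -0.53 ± 0.16 on the log2 scale. The 10 other tested genes of the AHR pathway gave 1 rise at week 2, none passing at week 15, and 1 rise and 1 fall at week 25. Nqo1, a quinone reductase, rose at weeks 2 and 25 (log2 1.57 ± 0.32 and 1.58 ± 0.30, adjusted p = 0.0103 and 0.00721), and the receptor Ahr fell at week 25 (-1.12 ± 0.21, adjusted p = 0.00644). The difference between weeks was called in none of these 10, where Ahr had -0.97 ± 0.29 (adjusted p = 0.0637) and Nqo1 0.02 ± 0.43 (adjusted p = 0.987). Exons of Tiparp share 186 bases with an antisense gene that held 0 to 9 counts in any library.

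Uba6, the ubiquitin activating enzyme, had 18.9 and 13.5 CPM in control epidermis at week 2, 32.8 and 35.4 at week 15, and 59.6 and 58.0 at week 25. UVB epidermis gave 39.7 and 44.4 CPM for Uba6 at week 2, 38.3 and 45.6 at week 15, and 31.1 and 29.4 at week 25. UVB libraries of weeks 2 and 15 overlapped and those of week 25 lay below both, while controls climbed at both steps without overlap. The arms were 1.80 ± 0.20 in controls and -0.46 ± 0.19 in UVB (log2). Of 12 other genes of ubiquitin-like activation, 1 fell at week 2, none passed at week 15, and 1 rose and 1 fell at week 25. Uba7, which activates the interferon-induced modifier Isg15, rose (log2 2.84 ± 0.54, adjusted p = 0.0071), and Birc6, a very large ubiquitin ligase that works with Uba6, fell (-1.14 ± 0.14, adjusted p = 0.00157). Birc6 also differed between weeks 25 and 2 (-1.26 ± 0.20, adjusted p = 0.0103). None of the 12 passed at week 2 without week 2 control 1.

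Mib1, the NOTCH ligand ubiquitin ligase, stood at 11.6 and 7.16 CPM in control epidermis at week 2, 20.6 and 19.2 at week 15, and 42.7 and 46.3 at week 25. In UVB epidermis Mib1 had 26.7 and 25.4 CPM at week 2, 21.7 and 28.4 at week 15, and 16.2 and 18.3 at week 25. Controls of week 25 were above every other library, and UVB libraries of week 25 were below those of weeks 2 and 15. Its arms were 2.17 ± 0.26 and -0.59 ± 0.24 (log2). Among 17 other tested NOTCH genes, 2 rose and 1 fell at week 2, none passed at week 15, and 1 rose and 3 fell at week 25. Neurl1b, another ubiquitin ligase of NOTCH ligands, rose at weeks 2 and 25 (1.25 ± 0.27 and 1.21 ± 0.25, adjusted p = 0.0127 and 0.00974). Psen2, a catalytic subunit of gamma-secretase, fell at week 2 (-2.06 ± 0.30, adjusted p = 0.00417) and differed between weeks 25 and 2 by 1.98 ± 0.40 (adjusted p = 0.0187). At week 2, 1 NOTCH gene rose and 1 fell without its control 1.

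Lnpep, the insulin-regulated aminopeptidase, had the smallest UVB effect of the 10 at week 2. Control epidermis held 23.3 and 27.0 CPM of Lnpep at week 2, 61.2 and 45.6 at week 15, and 99.8 and 94.4 at week 25. UVB epidermis held 35.2 and 33.2 CPM of it at week 2, 29.0 and 36.4 at week 15, and 21.5 and 23.6 at week 25. UVB was 1.33-fold higher at week 2, 1.66-fold lower at week 15 and 4.29-fold lower at week 25. The arms were 1.93 ± 0.21 in controls and -0.59 ± 0.20 in UVB (log2). Of 6 other tested aminopeptidases of its family, 1 rose at week 2, none passed at week 15, and 1 rose and 1 fell at week 25. Erap1, which trims peptides for MHC class I, rose at week 2 (0.73 ± 0.18, adjusted p = 0.0219) but did not pass without week 2 control 1 (0.57, adjusted p = 0.0877).

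Nav3, the microtubule-binding navigator, had the lowest CPM per kilobase of the 10 in each of the 8 groups and the widest difference between weeks. Its control libraries had 5.87 and 3.79 CPM at week 2, 32.4 and 18.1 at week 15, and 31.7 and 32.2 at week 25, the lowest of them resting on 9 counts. Its UVB libraries had 26.3 and 19.9 CPM at week 2, 15.6 and 20.3 at week 15, and 5.19 and 7.80 at week 25. Controls were low at week 2 only, and UVB libraries were low at week 25 only. The control arm was 2.64 ± 0.37, the UVB arm -1.82 ± 0.35 and their difference -4.46 ± 0.51 (log2). The control arm had covered 87.3% of its course by week 15, the most of the 10, against 43.7% for H2-M2, the least. Its relative Nav1 rose with UVB at week 25 (3.52 ± 0.56, adjusted p = 0.00386) and differed between weeks the other way (3.97 ± 0.79, adjusted p = 0.0187). Nav2 fell at week 2 (-1.82 ± 0.41, adjusted p = 0.0149), and neither Nav1 nor Nav2 passed at week 15.

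Prrg4, the Gla domain protein, had 28.2 and 13.5 CPM in control epidermis at week 2, 56.6 and 39.4 at week 15, and 110 and 105 at week 25. UVB epidermis had 74.1 and 76.4 CPM of Prrg4 at week 2, 52.9 and 63.7 at week 15, and 34.3 and 38.6 at week 25. UVB libraries were lower at each later week without overlap, the mirror of the control libraries. Its arms were 2.28 ± 0.28 and -1.03 ± 0.26 (log2). Among 6 other tested Gla proteins and vitamin K enzymes, 1 rose at week 2 (1 rose and 1 fell without week 2 control 1), none passed at week 15, and 1 rose and 2 fell at week 25. The vitamin K reductase Vkorc1 rose at week 25 (0.72 ± 0.19, adjusted p = 0.0245) and its relative Vkorc1l1 fell (-0.52 ± 0.16, adjusted p = 0.0471). The Gla protein Pros1, chosen here as the gene most like Ago2, had a log2 UVB effect of 0.60 at week 2 and -0.59 at week 25.

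Ctsz, the lysosomal carboxypeptidase, ran the other way. Control epidermis had 89.8 and 107 CPM of Ctsz at week 2, 55.0 and 35.7 at week 15, and 24.6 and 13.1 at week 25. UVB epidermis had 12.7 and 11.9 CPM of Ctsz at week 2, 23.9 and 27.5 at week 15, and 40.9 and 29.2 at week 25. Controls were lower and UVB libraries higher at each later week, with no overlap between weeks in either arm. The control arm was -2.41 ± 0.32, the UVB arm 1.52 ± 0.32 and their difference 3.93 ± 0.45 (log2). Of 16 other tested cathepsins and related lysosomal proteases, 4 fell at week 2, 1 rose at week 15 and 2 rose at week 25, with median log2 values of -0.52, -0.07 and 0.10. The legumain Lgmn rose at weeks 15 and 25 (1.09 ± 0.23 and 1.40 ± 0.23, adjusted p = 0.0339 and 0.00417), and Ctss, the cathepsin of antigen-presenting cells, rose at week 25 (3.11 ± 0.35, adjusted p = 0.00132). The difference between weeks was called up in these 2 of 16 and down in none, with 1.31 ± 0.33 for Lgmn (adjusted p = 0.0368) and 3.61 ± 0.48 for Ctss (adjusted p = 0.00829). Without week 2 control 1, 1 of the 16 fell at week 2, and Ctss alone differed between weeks, Lgmn having 1.32 (adjusted p = 0.0608).

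H2-M2, the nonclassical MHC class I gene, had 40.4 and 73.7 CPM in control epidermis at week 2, 30.0 and 37.2 at week 15, and 19.8 and 14.5 at week 25. UVB epidermis had 15.3 and 14.9 CPM of H2-M2 at week 2, 44.7 and 56.2 at week 15, and 45.4 and 53.2 at week 25. UVB libraries reached their later level by week 15, while controls were lower at each later week. Its arms were nearly equal in size, -1.75 ± 0.30 in controls and 1.72 ± 0.30 in UVB (log2), and the highest value, 73.7 CPM, came from week 2 control 1. Reads that MHC class I genes share may be split between them, so its values are uncertain. Of 18 other tested genes of MHC class I and peptide loading, 1 rose and 3 fell at week 2, none passed at week 15, and 4 rose and 1 fell at week 25. At week 2, 0 of the 18 rose and 1 fell without week 2 control 1. H2-T24, another nonclassical gene, rose at week 25 (1.55 ± 0.50, adjusted p = 0.0486), and the peptide transporter Tap2 had 0.59 ± 0.16 at week 15 (adjusted p = 0.0666).

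Markers of other cells were set beside Ctsz and H2-M2, and they did not all run with these 2 genes. The 14 Langerhans and dendritic cell markers summed to 606 to 948 CPM in control and 535 to 550 in UVB epidermis at week 2, and to 345 to 504 in control and 1064 to 1173 in UVB at week 25. At week 2, 1 of these 14 rose and none fell, with a median log2 value of -0.10. The 1 was Cd86 (1.66 ± 0.37, adjusted p = 0.0144), which did not pass without week 2 control 1 (1.59, adjusted p = 0.0576). Of these 14, 11 rose and none fell at week 25, among them Cd86, Csf1r and H2-Eb1 (log2 2.86 ± 0.35, 2.46 ± 0.27 and 1.49 ± 0.28). Macrophage markers summed to 480 to 512 CPM in control and 489 to 504 in UVB at week 2, with 1 rising and 1 falling of 11 tested. At week 25 they summed to 397 to 416 CPM in control and 572 to 590 in UVB, with 8 of 11 rising. The median log2 value of these 11 was -0.53 at week 2 and 3.14 at week 25, which the sums do not show. Fibroblast markers summed to 55.5 to 64.4 CPM in control and 50.9 to 51.8 in UVB at week 2, with 1 rising and 1 falling of 7 tested. At week 25 they stood at 18.3 to 18.4 CPM in control, below both week 2 controls, and at 70.7 to 202 in UVB, with 7 of 7 rising. The median log2 value of these 7 was -2.31 at week 2, where the sums were close, and 4.30 at week 25. Hair follicle markers ran from 3061 to 3221 CPM in control epidermis of week 2 to 940 to 1660 at week 25, and from 101 to 482 in UVB at week 2 to 174 to 453 at week 25, with 12, 7 and 8 of 15 falling with UVB at weeks 2, 15 and 25. T cell markers summed to 60.1 to 111 CPM in control and 54.2 to 54.6 in UVB at week 2, with 1 of 9 falling, and to 96.8 to 132 in control and 159 to 178 in UVB at week 25, with 2 of 9 rising. Calls at week 2 without its control 1 were 1 macrophage marker rising, 0 fibroblast and 0 T cell markers in either direction, and 10 hair follicle markers falling. Over weeks 2 and 25, 1 macrophage marker and 1 T cell marker were at 0 in both week 2 controls and no other marker was at 0 in both libraries of a group. Their part in the differences of the 10 genes was not tested.

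Week 15 gave UVB and control libraries that the choice of genes had not used. By edgeR's quasi-likelihood test 0 of the 10 genes passed, where 3.49% of all tested genes did. An unadjusted p under 0.05 was found for 2 of the 10 (Lnpep and Ctsz) and for 2755 of the 13478 tested genes (20.4%), a like share. DESeq2 called 1 of the 10, Lnpep, and 7.46% of all. Lnpep had the smallest p, with a log2 difference of -0.73 ± 0.20 (adjusted p = 0.0667, and 0.026 by DESeq2), both UVB libraries being below both controls. It also passed when week 15 control 1 (-0.91, adjusted p = 0.0269) or week 2 control 0 (-0.71, adjusted p = 0.0492) was left out, settings that called 10.5% and 5.37% of all tested genes. Ctsz had -0.84 ± 0.30 (adjusted p = 0.148), both UVB libraries being lower. H2-M2 had 0.56 ± 0.29 (adjusted p = 0.304), both UVB libraries being higher. The other 7 genes lay between -0.51 (Nav3) and 0.31 (Mib1), with adjusted p from 0.413 to 0.825. UVB and control did not overlap in 7 of the 10 genes, where 52.0% of all tested genes did not overlap. Thus at week 15 no difference in the 10 genes passed the edgeR test. Standard errors ran from 0.16 (Tiparp) to 0.32 (Nav3), so this does not show that the arms were alike.

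**Figure D4:**
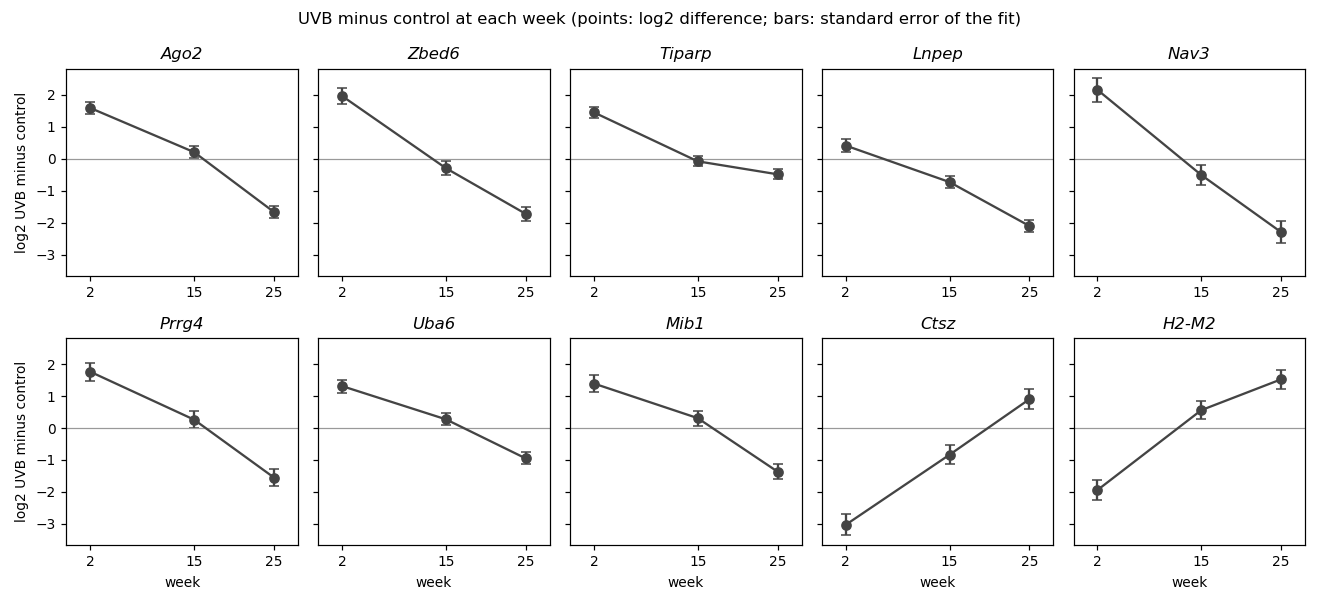
Log2 UVB minus control (y axis) at weeks 2, 15 and 25 (x axis) for each gene, with bars for the standard error of the fit. Lines join the 3 weeks: 8 genes run from above 0 to below 0 with week 15 values of -0.73 to 0.31, and Ctsz and H2-M2 run from below 0 to above it.

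Tumor against whole skin, both at week 25, gave no call for any of the 10 genes. The edgeR test called 0 of 14661 genes (0%), with 813 (5.55%) at an unadjusted p under 0.05, none of them one of the 10, and DESeq2 called 66 genes (0.450%), also none of the 10. Nav3 was scarce in both tissues, at 4.58 and 1.07 CPM in whole skin and 1.84 and 3.41 in tumor, 3 of these 4 libraries lying below every epidermis library. Ctsz was abundant in both, at 96.2 and 116 CPM in whole skin and 117 and 126 in tumor. Zbed6 showed the widest spread, with 116 and 18.5 CPM in whole skin and 25.0 and 38.6 in tumor, the tumor libraries lying between the 2 whole skin libraries. Tumor and whole skin did not overlap in 2 of the 10 genes, Tiparp (81.5 and 73.5 against 85.5 and 91.9 CPM) and Ctsz, where 34.4% of all tested genes did not overlap.

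Whole skin control 1 was lower than control 0 in each of Ago2, Zbed6, Tiparp, Lnpep, Nav3, Prrg4, Uba6 and Mib1, by a median of -1.08 on the log2 scale (range -2.61 to -0.15). The same pair differed by 0.72 in the median gene under 1 kb and by -0.55 in the median gene over 6 kb. Without control 0, Ago2, Zbed6 and Prrg4 were called higher in tumor (log2 0.80, 0.73 and 1.05, adjusted p = 0.00753, 0.032 and 0.0147), where 8.18% of all tested genes were called higher. Without control 1, Ago2, Zbed6, Lnpep and Mib1 were called lower (-0.80, -1.95, -0.65 and -0.83, adjusted p = 0.000162, 5.72e-27, 0.0172 and 0.0041), where 18.2% of all tested genes were called lower. Ago2 and Zbed6 thus passed in opposite directions, depending on which whole skin library was kept, and the lone library is assumed to vary like the tumor pair. Skeletal muscle markers summed to 2660 to 5182 CPM in whole skin and 4314 to 4510 in tumor, against 15.8 to 86.7 in epidermis, and fibroblast markers to 612 to 1180 and 1213 to 1625.

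Levels between genes were set side by side per kilobase of counted exon. In week 25 control epidermis Prrg4 (37.7 CPM per kb) and Tiparp (36.1) stood highest, followed by Zbed6 (23.04), Lnpep (18.7), Ago2 (14.2), Ctsz (13.6), Mib1 (11.7), Uba6 (11.6), H2-M2 (11.2) and Nav3 (4.11). In week 2 control epidermis Ctsz (70.5) and H2-M2 (37.3) were highest and Nav3 (0.62) lowest. In order of mean CPM over the 8 groups, week 2 control was the lowest group, without overlap with the next, for Ago2, Zbed6, Tiparp, Uba6 and Mib1. Week 25 control was the highest, without overlap with the next in order, for Ago2, Zbed6, Lnpep, Prrg4, Uba6 and Mib1. It was also the highest for Nav3, overlapping week 15 control. For Zbed6, whole skin, not next in order to either group, reached into both. Whole skin 1 (18.5 CPM) lay between the week 2 controls (21.4 and 11.4), and whole skin 0 (116) between the week 25 controls (109 and 122). Week 2 UVB was the lowest group for Ctsz and H2-M2, and for H2-M2 it overlapped week 25 control. Tumor was the highest group for Ctsz and week 2 control for H2-M2, where it overlapped week 15 UVB.

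The deposited length of a gene equals the summed length of its counted exon blocks, which was checked for the 10 genes. The 8 genes that were higher in week 25 controls than in week 2 controls had lengths from the median of tested genes upward: Ago2 8031 bases, Nav3 7782, Lnpep 5181, Uba6 5087, Zbed6 5007, Tiparp 4154, Mib1 3793 and Prrg4 2846, where the median over tested genes is 2828 bases. The 2 that were lower are shorter, Ctsz with 1393 and H2-M2 with 1528 bases. A gene's length is the same in every library and does not enter its fold, but folds ran with length over all genes. The median difference between weeks ran from 0.57 under 1 kb through 0.31, 0.04, -0.18 and -0.36 to -0.60 over 10 kb, and from 0.28 to -0.49 without week 2 control 1. In controls the medians ran from -0.57 to 0.65 over the same 6 classes, and in UVB from 0.00 to 0.12. Spearman's rho with length across the 13478 genes, which share the same libraries, was -0.30 for the difference, 0.36 for the control arm and -0.02 for the UVB arm.

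**Figure D5:**
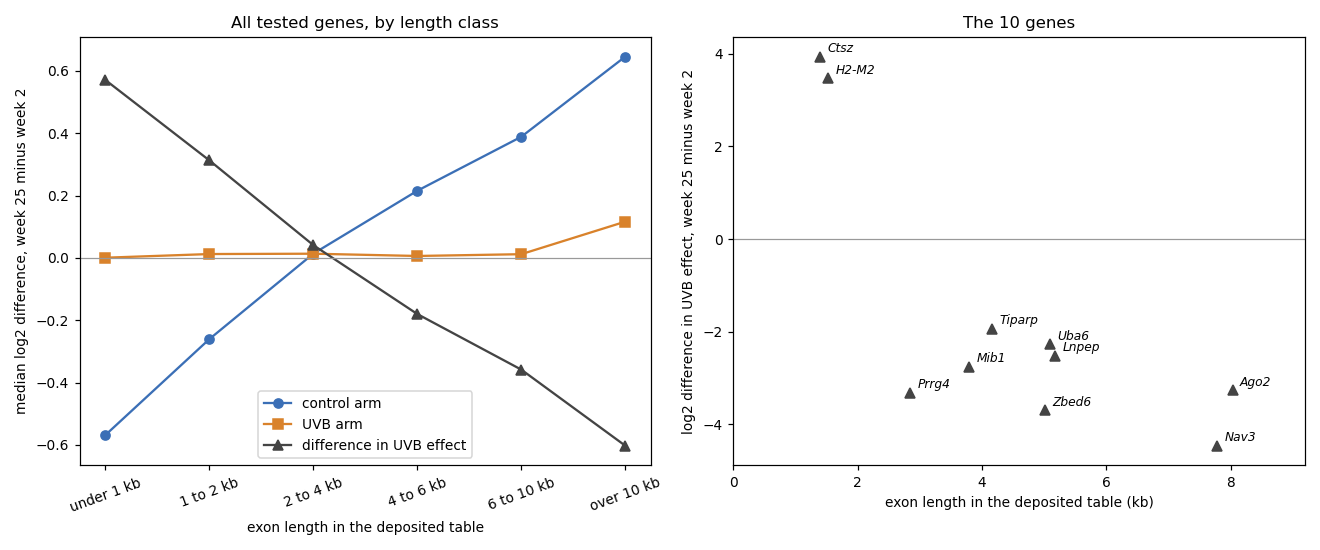
Left, median log2 difference between weeks 25 and 2 over all tested genes (y axis) by class of counted exon length (x axis), for controls (blue circles), UVB (orange squares) and the difference in UVB effect (black triangles). Right, the difference in UVB effect of the 10 genes against their length in kb: the control median runs from -0.57 to 0.65 while the UVB median stays within 0.00 to 0.12, and the 2 short genes are the 2 above 0.

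The trend with length varied between libraries. The median of genes over 6 kb minus that of genes under 1 kb was -0.10 and -0.62 in week 2 controls 0 and 1, 0.47 and 0.14 in week 15 controls, 0.53 and 0.54 in week 25 controls, and -0.25 to 0.06 in the 6 UVB epidermis libraries. Between week 2 controls, library 1 was lower than library 0 in 7 of the 8 genes (median log2 -0.52), and higher by 0.25 in Ctsz and 0.86 in H2-M2. The 10 genes stood at the edge of their own length classes: the 8 were at percentiles 0.158 to 1.84 and Ctsz and H2-M2 at percentiles 98.1 and 97.4, which their selection fixes. With each library's trend with length removed, the differences were -2.79 for Ago2, -3.44 for Zbed6, -1.74 for Tiparp, -2.24 for Lnpep, -4.02 for Nav3, -3.27 for Prrg4, -2.00 for Uba6, -2.61 for Mib1, 3.67 for Ctsz and 3.23 for H2-M2, all in the same direction. Without the shallow week 2 control 1 they were -3.17, -3.38, -1.89, -2.64, -4.25, -2.95, -2.09, -2.52, 3.78 and 2.96 in the same order. What makes the libraries differ by length was not tested, and length, GC content and the groups cannot be told apart fully with 2 libraries each.

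The median difference also ran with base composition, from -0.22 in genes under 40% GC to 0.35 in genes over 56%. Of the 10 genes, Uba6 had the lowest GC content (37.4%) and Ctsz the highest (57.3%). GC content was that of a gene's longest transcript in the GENCODE M21 basic annotation, not of its counted exons. With trends in both length and GC removed, an alternative chosen after the data were seen, the differences ran from -3.94 (Nav3) to -1.54 (Tiparp) in the 8 genes and were 3.46 for Ctsz and 3.32 for H2-M2. The counted exons also leave out part of the longer transcript ends annotated in GENCODE M21. They cover the whole coding sequence of all 10 genes, but of the bases after the stop codon only 95 of 6456 for Mib1, 684 of 2864 for Nav3, 2029 of 8342 for Lnpep, 5286 of 11067 for Ago2 and 1923 of 3366 for Uba6. For Ctsz 381 of 382 were counted. For Zbed6, Tiparp, Prrg4 and H2-M2 all annotated bases after the stop were counted. Removal of duplicates limits the counts of abundant genes. The highest of the 10 was Ctsz, at 0.679 counts per base in whole skin control 0, where the highest gene of that library had 2.00. Neat1, whose counts hardly ran with depth, stood at 0.208 to 0.288 counts per base, so how far this limit touched Ctsz or H2-M2 (up to 0.327) was not tested.

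The counted span of Ago2 is chr15:73101625-73184947, of Zbed6 chr1:133655879-133660885, of Tiparp chr3:65528447-65555518, of Lnpep chr17:17527723-17624489 and of Nav3 chr10:109683439-110000219. Prrg4 spans chr2:104830741-104849850, Uba6 chr5:86110730-86172743, Ctsz chr2:174427494-174438992 and H2-M2 chr17:37480851-37483529, all in mm10, and Mib1 lies on chromosome 18. Tiparp and Mib1 are on the plus strand and the others on the minus strand. Ctsz shares 9 exon bases with the antisense gene Nelfcd, and without a stated strand setting reads there cannot be told apart.

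Over the 12 epidermis libraries the log2 CPM of the 8 genes ran together, with Pearson's r of 0.53 to 0.98 in their 28 pairs (median 0.88). The 8 ran against Ctsz and H2-M2 (r -0.89 to -0.36 in 16 pairs), which had 0.74 with each other. Without week 2 control 1 these were 0.52 to 0.98 (median 0.84), -0.83 to -0.30 and 0.66 over 11 libraries. These values describe the same libraries that chose the genes, share their depth and their trend with length, and carry no test. The genes most like them by r over the 12 libraries were Pros1 (0.99) and Pgap1 (0.97) for Ago2, Opa1 and Nek1 for Zbed6 (0.97 and 0.96), Larp4 and Crk for Tiparp (0.95 and 0.94), and Cep350 and Crebbp for Lnpep (0.97 each). For Nav3 they were Ept1 and Ppfia1 (0.96 and 0.95), for Prrg4 Arhgap5 and Fam83b (0.99 and 0.98), for Uba6 Pros1 and Tnks2 (0.98 and 0.97), and for Mib1 Pros1 and Atp13a3 (0.98 and 0.97). Ctsz was nearest to Rab37 and Relb (0.95 and 0.94), and H2-M2 to Tnni3 and Cfp (0.95 and 0.94). Pros1 was thus nearest to 3 of the 8 genes, and its control arm of 1.01 was smaller than that of any of them.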

How the data were processed

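RNA-seq counts of 16 libraries in 8 groups of 2 were used, grouped by the samples' titles. The values are the authors' deposited counts of reads per gene, whole numbers with no normalization, in 1 table that lists 24421 genes on mm10. The tools, per the submitters' processing notes, were HISAT2, Picard, featureCounts and DESeq2. Per the file headers, alignments had duplicates removed, which caps counts of abundant genes. Tool versions, the annotation release, strandedness and the handling of multi-mapping reads were not given in the sources used here.

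The tests were run with edgeR 4.0.16 under R 4.3.3, after TMM scaling and after filterByExpr had dropped low genes (minimum count 10, minimum total 15). The 12 epidermis libraries were fitted in 1 quasi-likelihood model (biological coefficient of variation 19.1%, residual degrees of freedom 6), and the 4 libraries of tumor and whole skin in another (29.8%, residual degrees of freedom 2). Benjamini-Hochberg adjustment ran over every tested gene, and an adjusted p under 0.05 counted as passing. Standard errors are the log2 difference over the root of F. CPM uses TMM over all 16 libraries, and correlations used log2 CPM with a pseudocount of 0.5. Trends with length were removed by lowess (span 0.3) per library. Scripts were tested on simulated data.

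The members and gene lists were chosen with earlier results of these data known. Named are the 10 genes, the 2 genes most like each by Pearson's r, Zc3h11a, and up to 3 other genes of each list with the smallest p at week 15. Predicted models and the 10 genes themselves were left out of the likeness search. Genes bordering the 10 in the ranking, Ctss, Malat1, Neat1 and the overlapping genes were added after their values were seen. Alternatives were DESeq2 1.42.0, RLE scaling, no filter, the replicate number as a block, other sets of libraries, removal of length trends and leaving out each library. Removing length and GC together, and the gene lists without week 2 control 1, were added later.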

Additional observations from a re-analysis of the deposited data

Results flagged for a closer look

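The UVB effect at week 25 minus that at week 2 marked all 10 genes, which were chosen by this difference, so the values are a description and no independent test of it was possible. On the log2 scale it was -3.26 for Ago2, -3.69 for Zbed6, -1.94 for Tiparp, -2.52 for Lnpep, -4.46 for Nav3, -3.31 for Prrg4, -2.27 for Uba6, -2.76 for Mib1, 3.93 for Ctsz and 3.47 for H2-M2.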

How the results depend on the processing

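The difference between weeks of the 10 genes kept its direction in all 200 values from the alternatives. Of these, 174 moved by less than the spread and 26 by more, the spread being the pooled standard deviation of log2 CPM within groups. The genes were chosen by this difference in libraries that the alternatives reuse. A kept direction was thus likely beforehand and is no independent support for the difference between weeks. Genes called for it numbered 1067 in the fit reported, 1758 with DESeq2, 1612 with no filter, 517 with all 16 libraries in 1 fit, 646 length-corrected, 584 length- and GC-corrected (chosen after seeing the data), and 71 (without week 2 UVB 1) to 3454 (without week 2 control 0) when 1 library was left out. Week 2 gave 2403 calls, 684 with its 4 libraries alone, and 125 to 4377 without 1 library (the same libraries). Week 15 gave 471 calls, 1006 with DESeq2, 1146 with no filter, 234 with 16 libraries, and 26 (without week 15 UVB 1) to 1463 (without week 15 control 1). Week 25 gave 2898 calls, 1779 with 16 libraries, 4562 with its 4 alone, and 519 (without week 25 UVB 0) to 3936 (without week 2 control 1). Of the 10 genes 0 passed at week 15, 1 with DESeq2, and 0 to 1 without 1 library. Tumor against whole skin gave 0 calls, 66 with DESeq2, 1 with no filter, 7 with 16 libraries, and 5 (without tumor 0) to 5488 (without whole skin 1). Of the 10 genes 0 to 4 passed there without 1 library.

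Directions turned at week 15 for Tiparp (range without 1 library -0.27 to 0.10). In tumor against whole skin they turned for H2-M2 (-0.060 length-corrected, -0.043 length- and GC-corrected), Ago2 (0.010 length- and GC-corrected), Nav3 (0.0066 likewise) and Uba6 (0.12 likewise). Without 1 library they ran from -0.32 to 0.47 for H2-M2, -0.80 to 0.80 for Ago2, -0.88 to 1.24 for Nav3, -0.45 to 0.35 for Uba6, -1.95 to 0.73 for Zbed6, -0.65 to 0.29 for Lnpep and -0.83 to 0.52 for Mib1, each end being reached without whole skin 0 or 1. The median of the 2 to 4 kb class turned to -0.025 among genes of at least 5 CPM and ran from -0.043 (without week 2 control 0) to 0.066 (without week 2 UVB 1). The cause of these changes was not tested.

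The labels do not say whether the numbers 0 and 1 pair libraries, and they were treated as unpaired: deviations of same-numbered libraries correlated at -0.09 (week 2), -0.03 (week 15), 0.24 (week 25) and -0.10 (tumor and whole skin), with -0.19 to 0.29 over all pairs of epidermis groups. With the replicate block, calls were 907 for the difference between weeks, 2079, 558 and 2785 at weeks 2, 15 and 25, and 235 in tumor against whole skin, with none of the 10 genes among the calls of week 15 or tumor. The shallowest library, at 2905165 counts, limits week 2.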
